A study of Mus musculus with 7 samples.

Results

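Podocyte genes were followed in bulk RNA from whole injured kidneys. The set holds 32 genes chosen by name for the slit diaphragm, cytoskeleton, surface, transcription factors and secreted proteins of podocytes. All 32 were found among the 42256 gene identifiers of the count table, and all 32 passed the low-count filter. The kidneys came from adult male mice of the background Mixed:129S1/Sv x C57BL/6, 3 labelled CDH11+/+ and 4 labelled CDH11-/-. CDH11 is cadherin-11, an adhesion molecule of mesenchymal cells. Every mouse, of either label, had been uninephrectomized and then infused with angiotensin II by osmotic pump (800 ng/kg/min), and tissue was taken 4 weeks after surgery. No kidney without this injury was analysed here, and how the allele was made is not given in the labels. The question addressed is whether podocyte transcripts differ between the labelled genotypes in injured kidneys.

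Podocytes are the epithelial cells that wrap the glomerular capillaries and, with the endothelium and the basement membrane between them, form the filtration barrier. Neighbouring foot processes are joined by the slit diaphragm, a junction built on nephrin and its relatives, which is anchored to actin through adaptor proteins. Loss of podocytes or of foot process structure leads to protein in the urine, and several of these genes are mutated in inherited nephrotic syndrome.

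Total counts ranged from 72087906 to 84786351 per library, and single members had between 56 and 30461 counts in a library. Values are CPM (counts per 1000000 of the library size) with library sizes scaled by the trimmed mean of M-values (TMM), and they are given per library in the order W1 to W3, the 3 libraries labelled CDH11+/+, and K1 to K4, the 4 labelled CDH11-/-. Cdh11 itself had 479, 338 and 932 counts in W1 to W3 against 953, 684, 1006 and 876 in K1 to K4. This goes against the labels, the deleted part of the gene is not stated, and every direction below is between labelled groups. W3 stood apart by its sum over the Y-linked genes Ddx3y, Eif2s3y, Kdm5d and Uty (64.7 CPM against 111 to 145 in the other 6). Of the 7 genes taken as defining podocytes (Nphs1, Podxl, Synpo, Wt1, Ptpro, Tcf21 and Lmx1b), all were detected in every library, the lowest at 2.26 CPM. Labels do not say more about how libraries of a group relate, so p-values measure the spread between these samples.

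Many podocyte genes were lower in the knockout-labelled kidneys. Of 32 members 15 fell, 1 rose and 16 were not called, with a threshold of 0.05 on the Benjamini-Hochberg adjusted p of edgeR's quasi-likelihood test. The falls made up 46.9% of members, and 12.9% of all 17964 tested genes fell. Members were chosen with earlier results of these data known, so these shares are a description and not a test. In either direction 50% of members and 29.7% of all tested genes were called, and 16.8% of all tested genes rose. The median log2 fold change was -0.33 over the members and -0.01 over all tested genes. The 4 largest falls were those of the formin gene Inf2, the transcription factor gene Wt1, Tdrd5 and the nestin gene Nes, and the single rise was that of Ildr2. CPM did not overlap between the groups for 13 of 32 members, a share close to the 38.5% of all tested genes. In bulk kidney RNA, fewer podocytes, less RNA per podocyte and a changed share of RNA from other cells cannot be told apart.

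**Figure D1:**
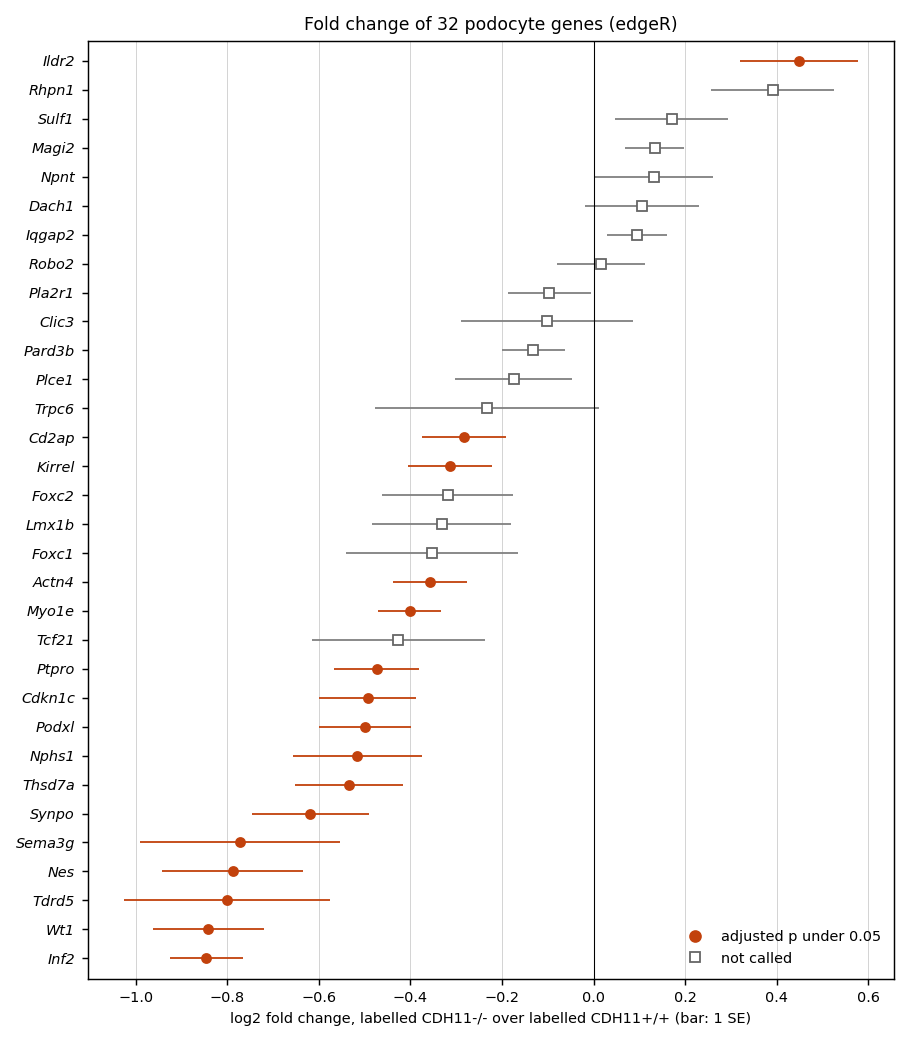
Log2 fold change (x axis) of each of the 32 podocyte genes, knockout-labelled over wild-type-labelled, with a bar of 1 standard error. Filled circles passed the adjusted p threshold: 15 lie below 0 and 1, Ildr2, lies above, while open squares were not called.

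With 1 library left out between 10 and 16 members fell, and the log2 fold change of each of the 15 stayed negative in all 19 alternatives. Without W1, W2 or W3 the number that fell was 10, 12 and 15. Without K1, K2, K3 or K4 it was 16, 10, 10 and 11. Calls over all tested genes, in either direction, changed too. They numbered 5327 with all libraries, and 3804, 4206 and 5300 without W1, W2 and W3. Without K1, K2, K3 and K4 they numbered 4823, 4148, 3957 and 4600. The rise of Ildr2 was not called without W3, K1, K2 or K4. Within the labelled groups the libraries kept a common order for many members. Among the 15 genes that fell, W1 was the highest of its group for 11 and W3 the lowest for 10, and K1 was the highest of its group for 12 and K3 the lowest for 10. How often this order holds over all tested genes was not counted, so it is not shown to be particular to the members.

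**Figure D2:**
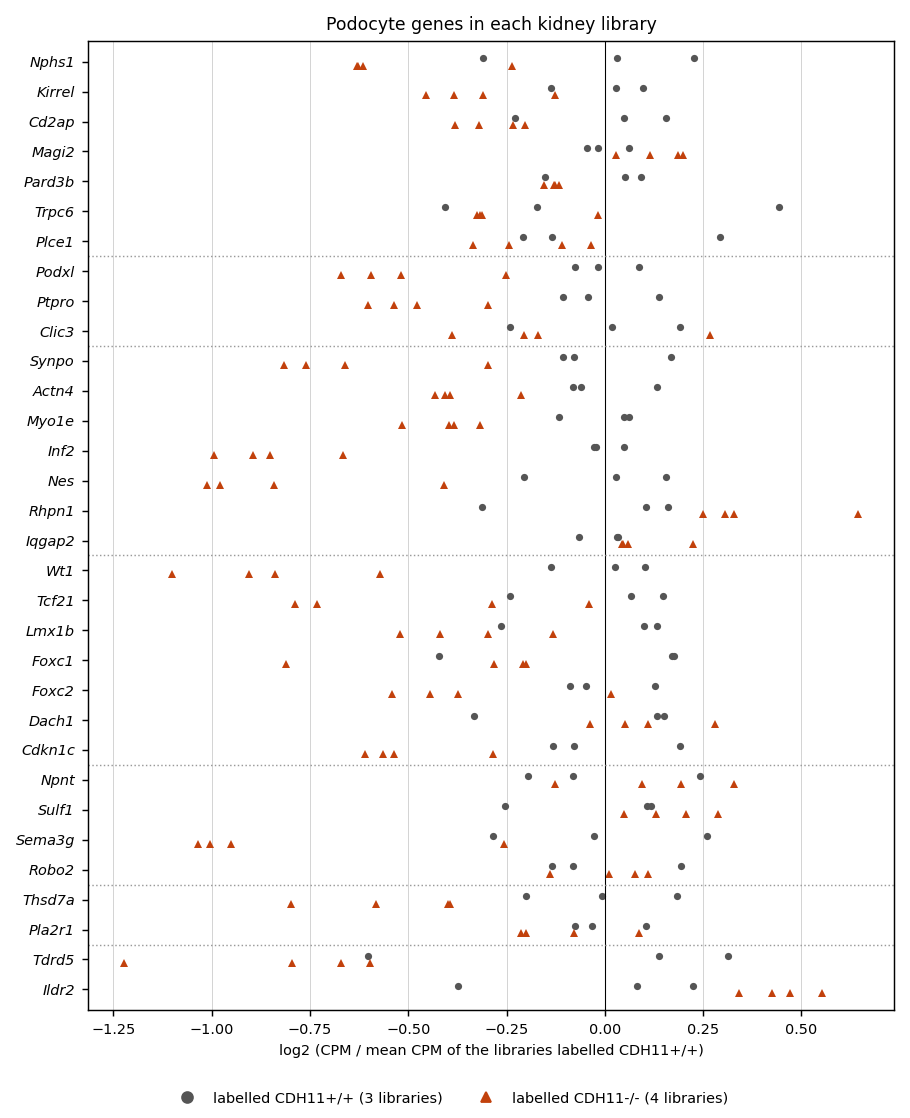
Each point is 1 library, placed by the log2 ratio of its CPM to the mean of the wild-type-labelled libraries (x axis), for the 32 podocyte genes grouped by role (dotted lines). Circles are the 3 wild-type-labelled and triangles the 4 knockout-labelled libraries. For Inf2, Wt1 and Nes every triangle lies left of every circle, and for many genes the rightmost triangle is K1.

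Levels of different genes were compared only per length, as counts per kilobase of annotated exon scaled to the same sum in every library. On this scale the wild-type-labelled mean was highest for Actn4 (72.9 ± 12.6, SD, n = 3) and Podxl (62.7 ± 6.58, SD, n = 3), whose spreads between libraries overlapped. Sema3g (28.0 ± 4.14, SD, n = 3) and Npnt (26.5 ± 4.52, SD, n = 3) followed, and their spreads overlapped too. All genes were measured in the same libraries, and differences between genes within a library were not tested. Nephrin (Nphs1) stood at 5.94 ± 0.774 (SD, n = 3), rank 14 of 32, and the channel gene Trpc6 was the lowest at 0.265 ± 0.0759 (SD, n = 3). The order depends on the length used: with the mean transcript length in place of all annotated exons, levels were multiplied by 0.759 to 3.59, and Actn4 (203) and Podxl (91.5) were followed by Npnt (34.6), Cd2ap (32.4) and Synpo (28.5).

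Promoter sequence of RefSeq (GRCm38.p6, 250 bases before to 50 after a start) was available for 25 of the 32 members, with 30 windows in all. Windows of 4 genes that fell are shown because they belong to the slit diaphragm (Nphs1), to the gene with the largest fall (Inf2), and to genes whose window holds a motif of a transcription factor that is itself a member (Actn4 and Sema3g). The motifs searched on both strands were GCGTGGGNG for WT1 and the related EGR factors, TAATTA for LMX1B, GTAAACA for FOXC factors and CAGCTG for TCF21, and capitals mark the matches (for Actn4 on the opposite strand). None of them overlaps another in these windows, which are on the plus strand except that of Actn4. They lie at chr7:30459808-30460107 (Nphs1), chr12:112588517-112588816 (Inf2, the first of its pair of annotated starts), chr7:28962283-28962582 (Actn4) and chr14:31217623-31217922 (Sema3g). The GENCODE annotation starts Nphs1 further upstream, at 30458315, so its window lies inside that gene and sequence around the GENCODE start is not shown.
Nphs1: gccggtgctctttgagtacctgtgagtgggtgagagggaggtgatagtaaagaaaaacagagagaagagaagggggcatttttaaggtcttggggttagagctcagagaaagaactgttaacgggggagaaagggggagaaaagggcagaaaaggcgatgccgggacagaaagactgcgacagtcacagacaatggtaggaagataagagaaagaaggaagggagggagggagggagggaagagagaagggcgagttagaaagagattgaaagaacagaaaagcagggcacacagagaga
Inf2: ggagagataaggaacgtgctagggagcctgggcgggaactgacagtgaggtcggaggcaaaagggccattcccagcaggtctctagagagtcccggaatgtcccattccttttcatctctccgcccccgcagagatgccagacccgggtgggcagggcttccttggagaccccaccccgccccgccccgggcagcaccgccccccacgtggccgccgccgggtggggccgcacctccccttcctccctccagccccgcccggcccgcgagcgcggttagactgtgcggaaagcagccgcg
Actn4: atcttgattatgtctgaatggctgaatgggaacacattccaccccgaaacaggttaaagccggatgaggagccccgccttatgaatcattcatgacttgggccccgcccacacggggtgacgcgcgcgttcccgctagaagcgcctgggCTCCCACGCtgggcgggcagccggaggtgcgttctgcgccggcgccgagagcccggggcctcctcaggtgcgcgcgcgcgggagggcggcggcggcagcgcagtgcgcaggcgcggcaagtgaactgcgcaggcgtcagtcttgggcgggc
Sema3g: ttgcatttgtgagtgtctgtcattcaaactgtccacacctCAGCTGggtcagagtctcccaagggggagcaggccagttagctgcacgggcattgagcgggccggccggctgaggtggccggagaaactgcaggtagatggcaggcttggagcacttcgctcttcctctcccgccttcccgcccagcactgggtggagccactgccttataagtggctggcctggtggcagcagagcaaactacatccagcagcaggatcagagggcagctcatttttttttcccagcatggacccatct
The WT1 and EGR motif was present in 2 of the 30 member windows (Actn4 and Magi2) and in 1.9% of all 32851 windows. TAATTA was present in 1 member window (Magi2) and in 5.29% of all windows, and GTAAACA in 0 member windows and in 3.65%. The E-box CAGCTG was present in 6 of the 30 member windows (Cd2ap, Iqgap2, Magi2, Robo2, Sema3g and Thsd7a) and in 16.3% of all windows. The windows of Nphs1 and Inf2 hold none of these letters, and their GC content was 49.7% and 69.7%. A match describes letters and not a bound site.

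Genes of the slit diaphragm were lower for 3 of 7 members, beside 12.9% of all tested genes, and the other 4 were not called. Nphs1 (ENSMUSG00000006649, mm10 chromosome 7, 30458315 to 30487223) encodes nephrin, the adhesion molecule that spans the slit. It stood at 33.6, 29.3 and 23.2 CPM in W1 to W3 and at 24.4, 18.6, 18.5 and 18.7 CPM in K1 to K4. The groups met at 1 point, since K1 was above W3. Nphs1 fell 1.43-fold (log2 fold change -0.52, SE 0.14, adjusted p = 0.0248, edgeR). The call was lost without W1, W2, K2, K3 or K4 (adjusted p of 0.0616 to 0.0893, edgeR). An antisense gene covers 9.02% of its exons, and whether counting used strand is not stated.

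Kirrel encodes Neph1, a partner of nephrin in the slit. It stood at 24.2, 21.6 and 25.4 CPM in W1 to W3 and at 21.7, 17.3, 18.2 and 19.1 CPM in K1 to K4, a 1.24-fold fall (adjusted p = 0.0302, edgeR). The call was lost without W1, W3, K2, K3 or K4 (adjusted p of 0.0590 to 0.0867, edgeR). Cd2ap, an adaptor between nephrin and actin that many other cells also express, stood at 139, 129 and 107 CPM against 100.3, 109, 96.2 and 106 CPM. It fell 1.22-fold (adjusted p = 0.0455, edgeR), and omission of any library other than W3 ended the call (adjusted p of 0.0544 to 0.143, edgeR). For both genes 1 knockout-labelled library reached into the range of the other group.

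Other proteins of the slit and its signalling were not called. The scaffold gene Magi2 had a log2 fold change of 0.13 (SE 0.06, adjusted p = 0.151, edgeR), and the sign turned with the deposited normalized values (-0.0084). Pard3b, a polarity protein gene, had -0.13 (SE 0.07, adjusted p = 0.183), and was called lower without W3 (adjusted p = 0.0285, edgeR). The phospholipase C gene Plce1 and the calcium-permeable channel gene Trpc6 had log2 fold changes of -0.17 (SE 0.13) and -0.23 (SE 0.24). Trpc6 rested on 56 to 94 counts per library, and without W1 its value was 0.040.

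On the apical surface, Podxl and Ptpro both fell. Podxl (ENSMUSG00000025608, mm10 chromosome 6, 31519488 to 31563981) encodes podocalyxin, the charged sialomucin of the foot process surface, which endothelial cells also make. It had 264, 236 and 246 CPM in W1 to W3 and 209, 174, 156 and 165 CPM in K1 to K4. All 4 knockout-labelled values were below all 3 others, a 1.41-fold fall (log2 fold change -0.50, SE 0.10, adjusted p = 0.00569, edgeR). Ptpro, a receptor tyrosine phosphatase gene of the same surface, had 19.4, 16.4 and 17.1 CPM against 14.4, 12.2, 11.6 and 12.7 CPM. The groups did not overlap, and the fall was 1.39-fold (adjusted p = 0.00532, edgeR). Clic3, of the chloride intracellular channel family, was not called (log2 fold change -0.10, SE 0.19).

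The cytoskeleton held the most falls, 5 of 7 members, and the groups did not overlap for any of the 7. Of all tested genes 12.9% fell and 38.5% did not overlap. Synpo encodes synaptopodin, an actin-associated protein of foot processes, and had 90.1, 75.9 and 74.5 CPM against 65.2, 50.7, 45.5 and 47.3 CPM. It fell 1.54-fold (log2 fold change -0.62, SE 0.13, adjusted p = 0.00742, edgeR). Actn4, the actin crosslinker alpha-actinin-4 that many cell types express, had 304, 308 and 352 CPM against 277, 243, 238 and 245 CPM. Its fall was 1.28-fold (adjusted p = 0.00989, edgeR), and 5.16% of its exons are shared with the opposite-strand gene Capn12. In both genes K1 was the closest to the other group.

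Inf2 (ENSMUSG00000037679, mm10 chromosome 12, 112588784 to 112615557) encodes an inverted formin that assembles and severs actin filaments. It had 32.6, 31.1 and 31.0 CPM in W1 to W3 and 17.0, 15.9, 17.5 and 19.9 CPM in K1 to K4. The wild-type-labelled values lay within 2 CPM of each other, and the fall of 1.80-fold was the largest of the 32 genes (log2 fold change -0.85, SE 0.08, adjusted p = 0.000163, edgeR). Here K4, not K1, was the highest of its group. Nes encodes nestin, an intermediate filament protein found in mature podocytes and in some vessels. It had 56.9, 52.1 and 44.3 CPM against 38.5, 28.5, 25.9 and 25.3 CPM, a 1.73-fold fall (adjusted p = 0.00635, edgeR).

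Myo1e, a membrane-bound class I myosin gene, had 57.1, 57.7 and 50.9 CPM against 44.3, 41.9, 38.6 and 42.3 CPM and fell 1.32-fold (log2 fold change -0.40, SE 0.07, adjusted p = 0.00297, edgeR). The other cytoskeletal members had positive log2 fold changes that were not called. Rhpn1 had 16.3 ± 2.77 CPM (SD, n = 3) against 21.4 ± 2.77 CPM (SD, n = 4) and just missed the threshold (log2 fold change 0.39, SE 0.13, adjusted p = 0.0553, edgeR). It was called higher by DESeq2 (adjusted p = 0.0300) and in edgeR with 1 surrogate variable (adjusted p = 0.0491). Iqgap2, a scaffold gene, had a log2 fold change of 0.10 (SE 0.06), and -0.054 with the deposited normalized values.

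Among transcription factors and cell cycle genes 2 of 7 fell and 5 were not called. The called share was 28.6%, beside 29.7% of all tested genes called and 12.9% lower. Wt1 (ENSMUSG00000016458, mm10 chromosome 2, 105126529 to 105173616) encodes the zinc finger factor that podocytes keep through adult life. It had 15.4, 14.6 and 13.01 CPM in W1 to W3 and 9.63, 7.64, 6.67 and 8.01 CPM in K1 to K4. The groups were far apart relative to their spread, and Wt1 fell 1.79-fold (log2 fold change -0.84, SE 0.12, adjusted p = 0.00124, edgeR). Cdkn1c, the gene of a cyclin-dependent kinase inhibitor that marks non-dividing podocytes, had 16.7, 17.3 and 20.8 CPM against 15, 12.0, 12.6 and 12.3 CPM. It fell 1.41-fold (adjusted p = 0.00799, edgeR), with 30.7% of its exons covered by an antisense gene.

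The other developmental factors had lower means in the knockout-labelled group but did not pass the test, apart from Dach1. Tcf21, a basic helix-loop-helix factor gene of podocytes and stroma, had a log2 fold change of -0.43 (SE 0.19, adjusted p = 0.128), and adjusted p = 0.0288 without K1 (edgeR). Lmx1b, a LIM-homeodomain factor gene, had -0.33 (SE 0.15, adjusted p = 0.134, edgeR). The forkhead genes Foxc1 and Foxc2 had -0.35 (SE 0.19, adjusted p = 0.196) and -0.32 (SE 0.14, adjusted p = 0.128, edgeR). Foxc1 was called lower without W2 (adjusted p = 0.0489) and with 1 surrogate variable (adjusted p = 0.0148), and Foxc2 without K1 (adjusted p = 0.0217, edgeR). Dach1, a dachshund family gene, had 0.11 (SE 0.12), and -0.046 without W3.

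Secreted and guidance genes were mixed, with 1 of 4 lower, beside 12.9% of all tested genes. Sema3g, a secreted semaphorin gene that arterial endothelium also expresses, had 111, 90.9 and 76.1 CPM against 77.5, 47.9, 46.2 and 45.2 CPM. K2, K3 and K4 lay well below the wild-type-labelled group, and K1 lay inside its range. Sema3g fell 1.71-fold (log2 fold change -0.77, SE 0.22, adjusted p = 0.03305, edgeR). That call was lost without W1, W2, K2, K3 or K4 (adjusted p of 0.0762 to 0.111), without the low-count filter (0.0866) and with 1 surrogate variable (0.0599, all edgeR).

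Npnt, the gene of the basement membrane protein nephronectin, had 114, 84.0 and 90.9 CPM against 121, 110.0, 88.1 and 103 CPM, and the groups overlapped (log2 fold change 0.13, SE 0.13, adjusted p = 0.481, edgeR). Sulf1, an extracellular heparan sulfate sulfatase gene, and Robo2, a receptor gene for Slit proteins, had log2 fold changes of 0.17 (SE 0.12) and 0.02 (SE 0.10). For Robo2 the sign turned without W1, W2, K3 or K4 (-0.056 to -0.00298).

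Thsd7a and Pla2r1 encode antigens of human membranous nephropathy, and 1 of these 2 genes fell, beside 12.9% of all tested genes. The difference between them was not tested. Thsd7a had 39.1, 34.3 and 30.0 CPM against 26.2, 26.2, 19.8 and 23.0 CPM, without overlap, and fell 1.45-fold (log2 fold change -0.53, SE 0.12, adjusted p = 0.00952, edgeR). Pla2r1 had 14.2 to 16.1 CPM in W1 to W3 against 12.9 to 15.9 CPM in K1 to K4, and was not called (log2 fold change -0.10, SE 0.09, adjusted p = 0.465, edgeR).

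Tdrd5, a tudor domain gene, had 9.21, 8.16 and 4.89 CPM against 4.90, 4.28, 3.18 and 4.66 CPM. W3 lay at the level of K1, and the fall was 1.74-fold (log2 fold change -0.80, SE 0.22, adjusted p = 0.0271, edgeR). Its call was lost without W1, W2, K2 or K3 (adjusted p of 0.0605 to 0.0986, edgeR). Ildr2, an immunoglobulin-like domain receptor gene, was the only member called higher. It had 53.0, 80.2 and 72.7 CPM against 95.0, 100.7, 86.9 and 92.1 CPM, without overlap, and rose 1.36-fold (log2 fold change 0.45, SE 0.13, adjusted p = 0.0291, edgeR). The adjusted p was 0.0526 to 0.0771 without W3, K1, K2 or K4, and 11% of its exons are shared with an antisense gene.

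Dividing each gene by Nphs1 of the same library removes the scaling of libraries and leaves the members relative to nephrin. This ratio was chosen after the values were seen. The geometric mean of the ratio was compared, knockout-labelled over wild-type-labelled. It was 1.002 for Podxl, 1.02 for Ptpro, 1.01 for Cdkn1c and 0.983 for Thsd7a, and the groups overlapped for each. The arithmetic means of Podxl (8.85 against 8.79) and Cdkn1c (0.662 against 0.649) were slightly lower in the knockout-labelled group. Of the 31 other members 12 had ratios that did not overlap between the groups, 10 higher and 2 lower, a share close to the 35.3% of all tested genes. Nphs1 itself fell 1.43-fold, so a member with unchanged CPM has a higher ratio, and none of the 10 was called lower in CPM. An exact 2-sided permutation test of 3 against 4 libraries cannot give a p below 0.0571, and adjustment over the 31 ratios cannot give a lower value. Ratios without overlap take this p by construction, so it adds nothing to the absence of overlap.

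Rhpn1 stood clearly apart. Its CPM was 0.544, 0.599 and 0.569 of that of Nphs1 in W1 to W3 against 1.05, 1.11, 1.05 and 1.08 in K1 to K4, 1.88-fold higher (exact permutation p = 0.0571). Ildr2 was 1.97-fold, Sulf1 1.61-fold, Npnt 1.56-fold, Magi2 1.56-fold and Dach1 1.54-fold higher relative to Nphs1, each without overlap (exact permutation p = 0.0571 for each). The gap was narrow for Magi2, whose ratio was 1.043 in W3 and 1.044 in K1, and for Sulf1 and Trpc6. Clic3, Plce1, Trpc6 and Lmx1b were 1.32-fold, 1.27-fold, 1.24-fold and 1.13-fold higher in the same way. The pair with lower ratios was Wt1 and Nes. Wt1 was 0.457, 0.497 and 0.562 of Nphs1 against 0.395, 0.411, 0.360 and 0.428, and Nes was 1.69, 1.78 and 1.91 times Nphs1 against 1.58, 1.53, 1.40 and 1.35 times (exact permutation p = 0.0571 for each). With Podxl or Synpo as the reference, 11 and 14 members did not overlap, beside 51.4% and 53.9% of all tested genes.

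**Figure D3:**
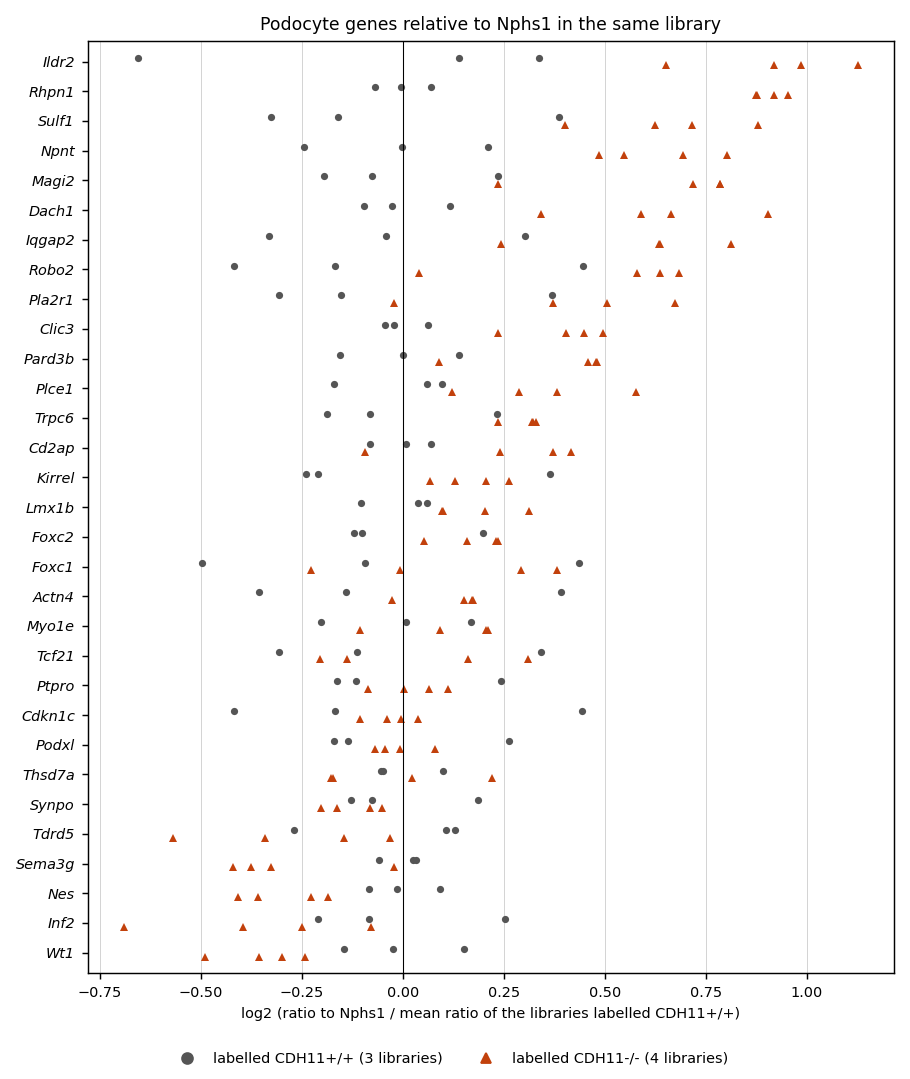
Ratio of each member's CPM to that of Nphs1 in the same library, as the log2 difference from the mean ratio of the 3 wild-type-labelled libraries (x axis); circles are wild-type-labelled and triangles the 4 knockout-labelled libraries. Ildr2 and Rhpn1 at the top have all triangles right of the circles, Podxl and Ptpro are centred near 0, and for Wt1 at the bottom all triangles lie left of the circles.

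Genes that work with the slit diaphragm and foot processes but are not members were mostly not called. Of 29 such partners 6 fell and 1 rose, and the median log2 fold change was -0.06. The called share was 24.1%, beside 29.7% of all tested genes. Fyn, the kinase that phosphorylates nephrin, fell 1.76-fold, with 11.6 ± 0.522 CPM (SD, n = 3) against 6.60 ± 0.5995 CPM (SD, n = 4) (adjusted p = 0.000355, edgeR). The focal adhesion gene Vcl, the junction scaffold gene Tjp1, the ezrin-binding scaffold gene Slc9a3r2 and the myosin gene Myh9 fell 1.35-fold, 1.24-fold, 1.39-fold and 1.22-fold. Anln, an actin-binding protein gene of dividing cells, rose 2.77-fold from 0.863 CPM, and 2 partners rose without W3. The call of Myh9 was lost without W1 or K4 (adjusted p of 0.0529 to 0.0535, edgeR). Most of these partners are expressed in many kidney cells.

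A further list of 10 podocyte-enriched genes had 5 lower and 1 higher (median log2 fold change -0.51), beside 12.9% and 16.8% of all tested genes. The tetraspanin gene Tspan2 fell 1.81-fold, Nebl 1.60-fold, Sema3e 1.49-fold, Crb2 1.41-fold and Bcam 1.34-fold, while the aminopeptidase gene Enpep, which proximal tubules also express, rose 1.25-fold. These calls were close to the threshold (adjusted p of 0.0181 to 0.0495, edgeR). The number that fell was 0 without W1 or K3, it was 1 without W2 or K4, and it was 2 without K2. The rise of Enpep was not called without W2 (adjusted p = 0.0630, edgeR) or with the deposited normalized values.

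The glomerular basement membrane list moved in both directions, with 60% called, beside 29.7% of all tested genes. The collagen IV genes Col4a3, Col4a4 and Col4a5, whose chains form the mature membrane, rose 1.56-fold, 1.31-fold and 1.23-fold, and the heparan sulfate proteoglycan gene Agrn rose 1.23-fold. Its laminin genes Lama5 and Lamb2 fell 1.23-fold and 1.27-fold, and 4 of 10 genes were not called. Col4a3 had 209 ± 25.7 CPM (SD, n = 3) against 325 ± 23.3 CPM (SD, n = 4) (adjusted p = 0.0014, edgeR). Which cells of the kidney made these basement membrane transcripts was not tested. The number of basement membrane genes that fell was 1 without W1, W2, W3, K2 or K4, and Agrn was not called without W1 or W2 (adjusted p of 0.0677 to 0.0805, edgeR).

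Markers of neighbouring cells differed in the same libraries, and their part in the podocyte results was not tested. The lists are named for cell types, but whole-kidney RNA does not show which cells a transcript came from. Over all tested genes 12.9% fell and 16.8% rose. Of 10 genes listed as glomerular endothelial 6 fell and 0 rose, among them Flt1 (1.61-fold) and Pecam1 (1.29-fold). The 10 genes summed to 448 to 529 CPM in the wild-type-labelled and 335 to 390 CPM in the knockout-labelled libraries. Without W1 only 2 of them fell. Mesangial genes fell in 2 of 8 (Pdgfrb and Gata3, 1.27-fold and 1.35-fold), with sums of 160.4 to 180.3 against 141 to 159.6 CPM and Tbx18 at 0 in 1 library of each group and at most 0.20 CPM. Parietal epithelial genes fell in 2 of 8 (Akap12 and Cd9, 1.56-fold and 1.37-fold), with sums of 212 to 248 against 186 to 242 CPM. Omission of a library left 1 mesangial fall without W1, W2, K2, K3 or K4, and 1 and 4 parietal falls without W1 and W2. Without W3, 1 mesangial gene rose.

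Tubular markers moved in both directions, and over all tested genes 12.9% fell and 16.8% rose. Proximal tubule genes rose in 5 of 8, with summed CPM of 8773 to 9990 in the wild-type-labelled and 13421 to 15044 in the knockout-labelled libraries, and Slc34a1 and Slc27a2 rose 2.20-fold and 1.48-fold. Distal nephron genes fell in 5 of 8, with sums of 6095 to 6645 against 4384 to 4955 CPM, and Slc12a3 and Scnn1g fell 1.71-fold and 1.65-fold. The number of distal falls was 2 without W1, K1 or K3, and 3 without K2, and 1 distal gene rose without K1. Of 8 fibroblast genes Col1a1 rose 2.48-fold and 7 were not called, with sums of 101 to 241 against 222 to 293 CPM. The rise of Col1a1 was lost without W1, K1, K3 or K4 (adjusted p of 0.0530 to 0.0930, edgeR), and also without the low-count filter. With W2 or W3 left out, 2 fibroblast genes rose. By the same measure the 7 defining podocyte genes summed to 389 to 443 CPM in the wild-type-labelled and 254 to 340 CPM in the knockout-labelled libraries, without overlap. Podxl alone made up 236 to 264 and 156 to 209 CPM of these sums. Nphs1, Tcf21 and Lmx1b each overlapped between the groups, and Tcf21 and Lmx1b were not called.

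**Figure D4:**
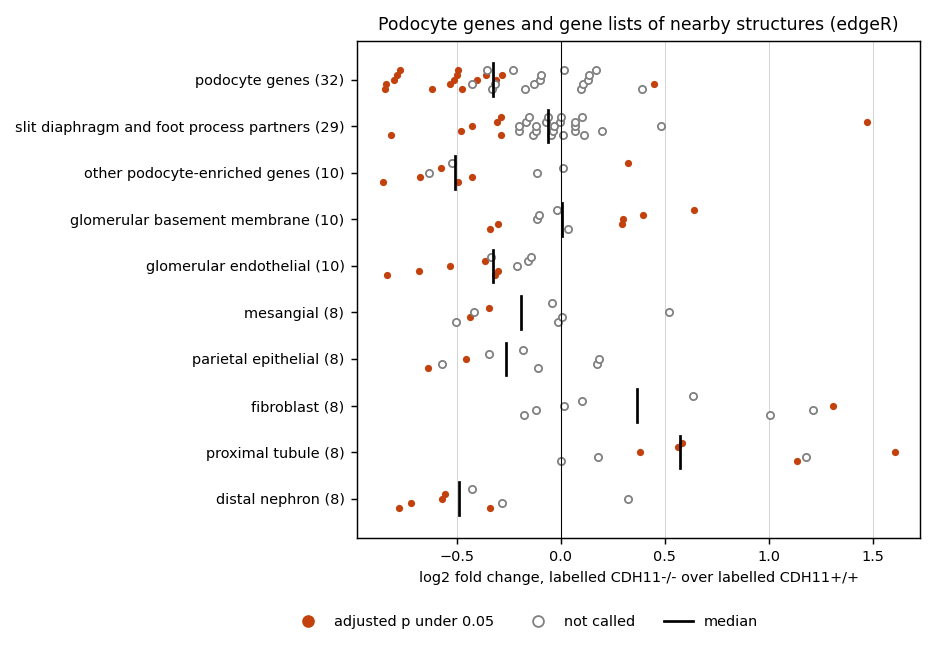
Log2 fold change (x axis, knockout-labelled over wild-type-labelled) of every tested gene in the podocyte set and in 9 lists of nearby structures and cells, with the number of genes in brackets. Filled points passed the adjusted p threshold and black bars are medians. These were -0.33 for podocyte genes, -0.33 for the glomerular endothelial list, -0.49 for distal nephron and 0.57 for proximal tubule.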

How the data were processed

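Whole-kidney RNA was sequenced from 7 mice, and groups follow the genotype in the labels. Replicates were numbered by accession order, which pairs nothing. The main table holds expected counts per gene that the authors deposited rounded to integers. A companion table of normalized values was also deposited, treated as a signal, in which the factor between value and count varies from gene to gene. DRAGEN, DESeq2 and mm10 appear in the submitters' processing notes, while annotation, strand setting and filters are not given in the sources used here.

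Symbols, positions and exon lengths came from GENCODE M21 (mm10). Counts were filtered with filterByExpr, scaled by TMM and tested over all genes with edgeR 4.0.16 (R 4.3.3, robust quasi-likelihood, 2-sided, no covariate, Benjamini-Hochberg adjustment over 17964 genes, threshold 0.05). The step was tested on simulated data. SE is the log2 fold change over the root of the F statistic. Means, ratios and exact permutation tests were computed in Python 3.11.15 with SciPy 1.17.1.

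Alternatives were DESeq2 1.42.0, limma 3.58.1 (voom with quality weights, and limma-trend on log2 of normalized values with a pseudocount of 1), other scalings, filters and thresholds, 1 surrogate variable (sva 3.50.0) and omission of each library. All members were named, with library values for those called and the 5 with the highest mean CPM over all 7 libraries. Up to 6 called genes by adjusted p were named for partners, basement membrane and further podocyte genes, and up to 2 per direction in other lists. Members and lists were chosen with earlier results of these data known. Ratios to Nphs1 were added after the values were seen, and their folds are of geometric means.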

Additional observations from a re-analysis of the deposited data

Results flagged for a closer look

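In the 4 knockout-labelled libraries (K1 to K4), a single library stood far from the other 3 for 8 of 61 genes examined, the 32 members and the other genes named, in that the gap to the nearest library exceeded 0.829 of the group's range. Chance flags about 1 in 20 groups. K1 was the high library for Nphs1 (24.4 CPM), Sema3g (77.5 CPM), Actn4 (277 CPM), Trpc6 (0.969 CPM) and the laminin gene Lama5 (187 CPM). K2 was high for Iqgap2 (84.0 CPM) and low for Foxc1 (10.005 CPM). K3 was low for the sodium channel gene Scnn1g (35.3 CPM).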

How the results depend on the processing

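Of the 15 members called lower, 10 were called in all 16 other fits at the same threshold (Podxl, Ptpro, Synpo, Actn4, Myo1e, Inf2, Nes, Wt1, Cdkn1c and Thsd7a), and all 15 had a negative log2 fold change in each of the 19 alternatives. The number lower was 6 when a fold of at least 1.5 was also required, and 10 to 16 with 1 library left out. The number higher was 1. It became 2 with DESeq2, with 1 surrogate variable and at an adjusted p under 0.10, it became 0 at an adjusted p under 0.01 and with the 1.5-fold limit, and it was 0 to 1 with 1 library left out. The sign of the log2 fold change turned for 5 members that were not called. These were Magi2 (-0.0084) and Iqgap2 (-0.054) with the deposited normalized values, and Trpc6, Dach1 and Robo2 with 1 library left out. Over the 7 omissions Trpc6 ranged from -0.41 to 0.040, highest without W1, Dach1 from -0.046 without W3 to 0.19, and Robo2 from -0.056 without W1 to 0.12. The cause was not tested. No paired analysis was possible because replicates were numbered by accession order and the numbers pair no libraries. Depth limits Trpc6, with 56 to 94 counts, more than the other members, which had at least 158 counts in every library.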
